A study of Mus musculus with 6 samples.

Results

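The genes of the cytosolic ribosomal proteins were compared between Ink4a-/- murine astrocytes transfected with an empty vector, pcDNA3.1-puro (control, n = 3), and the same cells transfected with pcDNA3.1-JAG1-puro (JAG1-overexpressing, n = 3). The members were chosen by symbol, as Rpl or Rps followed by a number, with Rplp0, Rplp1, Rplp2 and Rpsa, and without the S6 kinases and the rows named as pseudogenes. This took 85 of the 23282 gene rows, of which 52 belong to the large and 33 to the small subunit. The libraries were made with the QuantSeq kit, which reads the 3' end of polyadenylated RNA, so that reads per gene do not rise with transcript length. Both groups share this deletion, which the study writes as Ink4a/Arf-/-, so that Arf is lost with Ink4a. The labels give the control the genotype WT, read here as without JAG1, and neither a clone, the time after transfection, the age of the animals nor the number of separate cultures is given. P-values therefore measure the spread between these libraries, which may be technical.

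The ribosome is made of a large and a small subunit, each a core of ribosomal RNA covered by one copy of nearly every ribosomal protein. Because the subunits need these proteins in equal numbers, their mRNAs are usually abundant and move together. Most begin with a terminal oligopyrimidine (TOP) tract, a C at the first base followed by C and T, through which mTORC1 and the RNA-binding protein LARP1 control their translation. Translation is not measured by RNA sequencing. Unassembled Rpl5 and Rpl11 bind MDM2, which links ribosome assembly to p53. Arf, which also acts on MDM2, is deleted in both groups of these cells.

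The RefSeq table for GRCm38.p6 gave a transcription start for 61 of the 81 members with at least 10 reads in some library. A TOP tract was counted here as C at the start followed without a break by C or T to at least 5 letters on the transcribed strand. It was present at a listed start of 13 of the 61 members (21.3%) and of 272 of 9219 other genes (2.95%). A gene with more than 1 listed start was counted if any of them had the tract. When a C followed by 4 C or T letters was looked for on the same strand from 5 bases before to 10 bases after the start, the shares were 47.5% and 23.8%. The starts of the 5 tested members with a tract that rose are printed below, with 25 bases before and 20 bases from the start, because they carry the feature for which these mRNAs are known. Capitals mark the tract from the first transcribed base, and the start of Rpl37, which fell, is given for comparison and has no tract at that base.
Rps21, chr2:180257354-180257398, plus strand: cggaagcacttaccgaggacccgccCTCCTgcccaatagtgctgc
Rpl14, chr9:120571492-120571536, plus strand: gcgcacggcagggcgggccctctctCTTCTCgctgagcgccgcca
Rpl38, chr11:114668555-114668599, plus strand: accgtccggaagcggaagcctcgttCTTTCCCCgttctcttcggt
Rpl35a, chr16:33056457-33056501, plus strand: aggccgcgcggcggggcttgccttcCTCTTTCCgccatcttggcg
Rps18, chr17:33955646-33955690, minus strand: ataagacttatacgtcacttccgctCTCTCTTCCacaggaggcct
Rpl37, chr15:5116588-5116632, plus strand: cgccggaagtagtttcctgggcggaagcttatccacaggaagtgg
Among members with a start in the table, 5 of 19 that rose, 0 of 4 that fell and 8 of 38 that did neither had the tract. Rpl38 rose by 0.21 ± 0.05 on the log2 scale, Rps18 by 0.20 ± 0.06 and Rpl35a by 0.17 ± 0.06 (adjusted p = 0.00504, 0.0178 and 0.023, edgeR's quasi-likelihood test). The call of Rpl35a was lost without control replicate 1 or 2 or any JAG1-overexpressing replicate, that of Rps18 without control replicate 2 or JAG1-overexpressing replicate 3, and both when libraries were scaled to their summed ribosomal protein reads. Rpl38, Rpl35a and Rps18 were singled out for their sequence after their values were seen. Neither a match nor its lack at an annotated start shows where these cells begin transcription, so whether Rpl37 mRNA begins with a tract here is not known. Whether the tract goes with the direction of change was not tested. The printed starts of Rpl38 and Rpl35a lie inside the annotated spans of their genes, chr11:114667818-114672333 and chr16:33056453-33060189.

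The libraries held between 14341634 and 20489062 reads, and a count of 3, taken as the limit of detection, was worth 0.146 to 0.209 CPM (counts scaled to a common library size). Reads on the mouse gene Jag1 averaged 10.3 ± 1.18 CPM in the control libraries and 14.2 ± 0.862 CPM with JAG1 overexpression (SD, n = 3 each), so that it rose by 0.46 on the log2 scale (adjusted p = 0.00446, edgeR's quasi-likelihood test with Benjamini-Hochberg adjustment). Whether reads of the construct end in that row was not tested. Of the 10 astrocyte markers listed, Gfap, Aqp4, Slc1a2 and Slc1a3 had at most 3 reads in every library, and the 6 that were tested were all lower in JAG1-overexpressing astrocytes. The summed level of the astrocyte markers was 333 to 402 CPM in control and 125 to 137 CPM in JAG1-overexpressing libraries. The 5 fibroblast and pericyte markers summed to 315 to 325 CPM and to 170 to 205 CPM, with Lum and Rgs5 at 0, and the 5 neuronal markers to 95.8 to 108 CPM and to 59.2 to 61.6 CPM, with Rbfox3 and Snap25 at no more than 1 read. Of the neuronal markers 2 were tested, of which Map2 rose and Tubb3 fell, and the 3 tested fibroblast and pericyte markers fell. Microglial, oligodendrocyte lineage and endothelial markers summed to less than 5 CPM in each library. The part of these markers in the results on ribosomal protein genes was not tested, and in bulk RNA fewer cells of a type and less RNA per cell cannot be told apart.

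Ribosomal protein mRNA made up a similar share of the RNA in both groups. The 85 members took 6.42%, 6.20% and 6.21% of the reads of the control libraries and 6.42%, 6.58% and 6.65% of those of the JAG1-overexpressing libraries. The groups overlapped, with the first library of each at almost the same share, and the difference of the means was 0.271 percentage points.

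The groups were apart for the small subunit and overlapped for the large. Small subunit genes took 2.84%, 2.74% and 2.76% of the reads in control and 2.97%, 3.04% and 3.10% in JAG1-overexpressing libraries, with no overlap. The large subunit took 3.58%, 3.46% and 3.45% against 3.44%, 3.54% and 3.55%. Of all ribosomal protein reads, 55.8%, 55.8% and 55.5% lay on large subunit genes in control and 53.7%, 53.8% and 53.4% in JAG1-overexpressing libraries. Without the 4 members on chromosome 15 described below, these shares were 52.2%, 52.3% and 51.9% against 51.1%, 51.2% and 50.8%, so that the groups stayed apart by less. These sums are descriptions and were not tested.

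**Figure D1:**
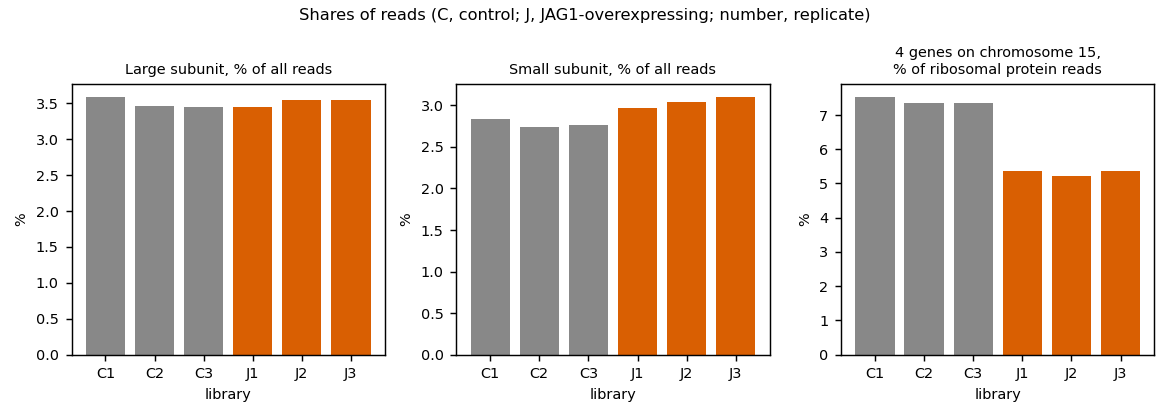
Share of reads (%) in each library, C for control and J for JAG1-overexpressing with the replicate number; each bar is 1 library and starts at 0. The panels give the large subunit and the small subunit as a share of all reads, and the 4 members on chromosome 15 as a share of ribosomal protein reads, which lay at 7.34% to 7.52% in control and at 5.22% to 5.36% in JAG1-overexpressing libraries.

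Of the 85 members, 81 had enough reads for the test, 49 of the large and 32 of the small subunit. Rpl10l, Rpl39l, Rpl3l and Rps4l, copies known mainly from testis or muscle or annotated as a pseudogene, had fewer than 10 reads in every library. The fewest reads of a tested member in a library were 342, on Rpl29, and the most were 96388, on Rps9. At an adjusted p under 0.05, 28 of the 81 rose with JAG1 overexpression, 8 fell and 45 passed in neither direction. Over all 11712 genes tested, 55.1% were called, 27.4% higher and 27.7% lower. Of the members tested, 44.4% were called, 34.6% higher and 9.88% lower.

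The changes were small. The log2 fold changes of the 81 ran from -0.45 to 0.36, with a median of 0.08, whereas the median of all genes was 0.00. No member moved by more than 0.5 in either direction, which 3921 of the 11712 genes did. The median size of the change, sign ignored, was 0.14 for the members, 0.31 for all genes and 0.23 for the 5921 other genes within the members' range of CPM. That range ran from 21.0 to 4630 CPM, and the 5921 genes were not matched to the members in level within it. The 3 libraries of each group lay wholly above those of the other group for 33 members and wholly below for 9, beside 31.1% and 30.9%, together 62.0%, of all genes. Among them Rpl6, Rpl39, Rpl7a and Rps15a were above, and Rpl31 below, without passing the test.

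**Figure D2:**
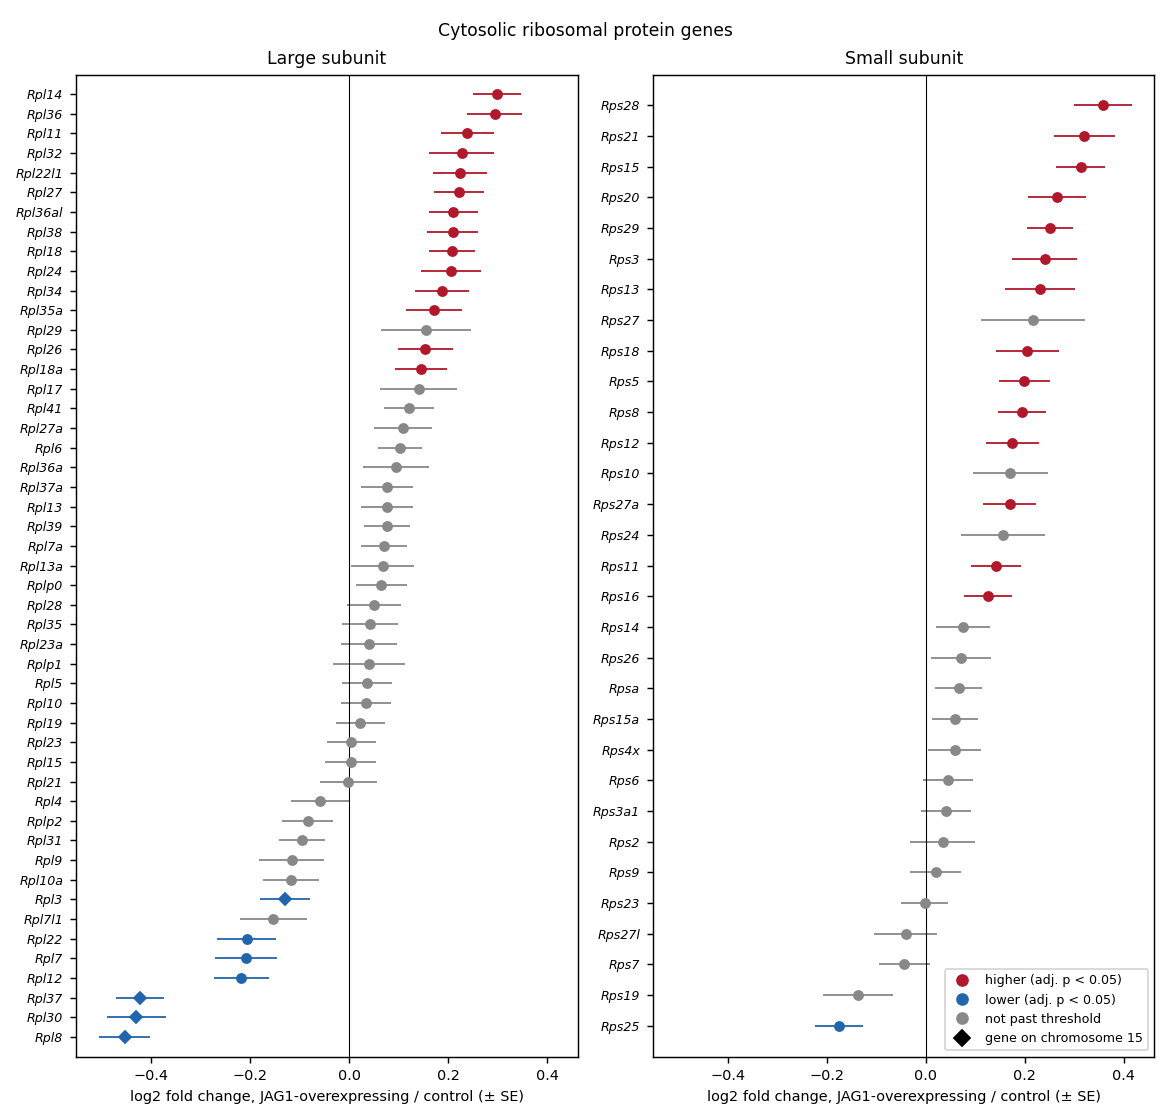
Log2 fold change, JAG1-overexpressing over control, of the large and small subunit genes reported here; points are estimates and bars are ± 1 standard error, coloured by the call at an adjusted p under 0.05, with diamonds for genes on chromosome 15. The 3 lowest points, Rpl8, Rpl30 and Rpl37, stand apart from the others, which lie between -0.22 and 0.36.

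By subunit, 14 of 32 small subunit genes rose (43.8%) and 1, Rps25, fell (3.13%), with a median log2 fold change of 0.13. Over all genes tested 27.4% rose and 27.7% fell. Of the 49 large subunit genes, 14 rose (28.6%, near the share of all genes) and 7 fell (14.3%), with a median of 0.07. Outside chromosome 15 the large subunit had 14 rises (31.1%) and 3 falls (6.67%) among 45 genes. The counts rested in part on single libraries and on the scaling. Without control replicate 2, 17 members rose, and without JAG1-overexpressing replicate 3, 18 did, while without JAG1-overexpressing replicate 1 only 5 fell. When libraries were scaled to their summed ribosomal protein reads, so that each gene was read against the group as a whole, 17 rose and 13 fell, and rises made up 56.7% of the calls in place of 77.8%. All genes moved the same way with this scaling, to 2652 rises and 3526 falls in place of 3211 and 3247.

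The 10 largest rises were shared between the subunits, 7 in the small and 3 in the large. Rps28, a small protein near the exit of the mRNA from the small subunit, had the largest. It stood at 158, 152 and 166 CPM in control and at 203, 192 and 214 CPM in JAG1-overexpressing libraries. The lowest JAG1-overexpressing library was above the highest control, and the gene rose by 0.36 ± 0.06 on the log2 scale (± SE, adjusted p = 0.000327, edgeR's quasi-likelihood test).

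Rps21, a protein of the body of the small subunit whose TOP tract is the shortest of those printed, was at 461, 440 and 496 CPM and at 546, 581 and 617 CPM. Its groups did not overlap, and it rose by 0.32 ± 0.06 (adjusted p = 0.00099, edgeR's quasi-likelihood test). Rps15, which reaches towards the decoding centre and is needed for export of the small subunit from the nucleus, was at 264, 259 and 248 CPM in control and at 306, 322 and 327 CPM in JAG1-overexpressing libraries. It rose by 0.31 ± 0.05 (adjusted p = 0.000281, edgeR's quasi-likelihood test), again with the groups apart.

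Among the abundant genes of the small subunit, Rps20, a protein of the head that is ubiquitinated when ribosomes collide, was at 2823, 2582 and 2498 CPM and at 3152, 3050 and 3288 CPM. All JAG1-overexpressing libraries were above all controls, and its log2 fold change was 0.26 ± 0.06 (adjusted p = 0.00266, edgeR's quasi-likelihood test). Rps29, a zinc-binding protein of the head, rose by 0.25 ± 0.05, and Rps3, which lines the mRNA entry channel, by 0.24 ± 0.07. Rps29 was tight within each group, at 447 to 472 CPM and 542 to 563 CPM. Rps3 was spread more widely in control, from 1038 to 1247 CPM, and lay between 1310 and 1375 CPM in JAG1-overexpressing libraries. Rps13, the least abundant of the 10, at 53.6 to 58.5 CPM in control and at least 61.5 CPM in JAG1-overexpressing libraries, rose by 0.23 ± 0.07 (adjusted p = 0.0168, edgeR's quasi-likelihood test). Its call was lost without JAG1-overexpressing replicate 2 (adjusted p = 0.0623) or 3 (adjusted p = 0.0608), and when scaled to summed ribosomal protein reads (adjusted p = 0.0669, all by edgeR's quasi-likelihood test).

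In the large subunit, Rpl14, whose start carries the tract CTTCTC, had the largest rise. Its level was 1153, 1130 and 1179 CPM in control and 1418, 1372 and 1468 CPM in JAG1-overexpressing libraries. The groups were far apart for their spread, with SDs of 24.3 and 48.5 CPM, and the log2 fold change was 0.30 ± 0.05 (adjusted p = 0.000298, edgeR's quasi-likelihood test). None of the 50-base windows in the last 300 bases of Rpl14's coding transcript occurs in a transcript of another gene. Over its whole length, however, the transcript of the pseudogene Rpl14-ps1 has 78.3% of its windows in transcripts of Rpl14. Rpl36 was at 839, 786 and 735 CPM and at 946, 958 and 989 CPM, and rose by 0.29 ± 0.06 (adjusted p = 0.000944, edgeR's quasi-likelihood test).

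Rpl11 and Rpl5, which enter the large subunit together with 5S RNA and bind MDM2 when unassembled, differed in their calls. Rpl11 was at 238, 258 and 253 CPM in control and at 285, 309 and 289 CPM in JAG1-overexpressing libraries, and rose by 0.24 ± 0.05 (adjusted p = 0.0029, edgeR's quasi-likelihood test). Rpl5 was at 1076, 1021 and 974 CPM and at 1046, 1042 and 1060 CPM, with the groups overlapping and a log2 fold change of 0.04 ± 0.05. The difference between the 2 genes was not tested.

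**Figure D3:**
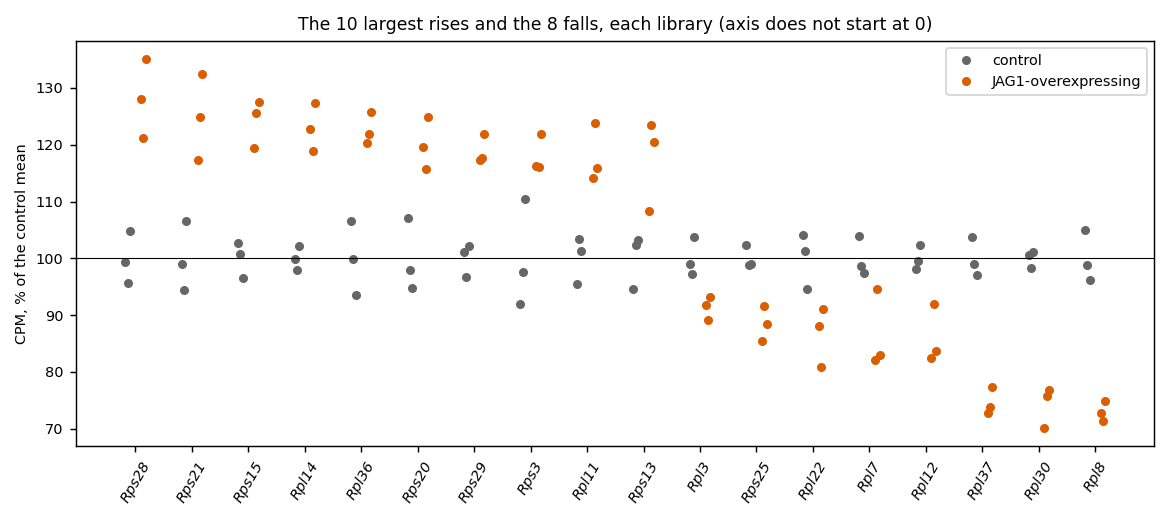
CPM of each library as a percentage of the gene's control mean, for the 10 largest rises and the 8 falls; each point is 1 library, grey for control and orange for JAG1-overexpressing, and the axis does not start at 0. In each of these 18 genes the 3 JAG1-overexpressing points lie on one side of the 3 control points, and Rpl8, Rpl30 and Rpl37 lie lowest.

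The falls were led by genes of chromosome 15. Rpl8, a core protein next to the peptidyl transferase centre and the second most abundant member, is at chr15:76904071-76906318. It was at 3752, 3535 and 3435 CPM in control and at 2603, 2550 and 2677 CPM in JAG1-overexpressing libraries. The lowest control library was well above the highest JAG1-overexpressing one, and Rpl8 fell by 0.45 ± 0.05 on the log2 scale (adjusted p = 2.3e-05, edgeR's quasi-likelihood test). Rpl8 alone made up 5.58% to 5.77% of ribosomal protein reads in control and 3.93% to 4.06% in JAG1-overexpressing libraries.

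Rpl30, a small RNA-binding protein, lies at chr15:34440505-34443276 and was at 84.1, 82.2 and 84.6 CPM against 58.7, 63.4 and 64.3 CPM, a log2 fold change of -0.43 ± 0.06 (adjusted p = 0.00011, edgeR's quasi-likelihood test). Rpl37, a zinc-binding protein at chr15:5116613-5119140, was at 882, 841 and 825 CPM against 618, 626 and 657 CPM. The libraries of the groups were apart for both, and Rpl37 fell by 0.42 ± 0.05 (adjusted p = 2.54e-05, edgeR's quasi-likelihood test). Rpl3, another protein close to the peptidyl transferase centre, at chr15:80077781-80083406, fell least, from 169, 166 and 177 CPM to 156, 152 and 159 CPM, with a log2 fold change of -0.13 ± 0.05 (adjusted p = 0.0488, edgeR's quasi-likelihood test). Its call did not last under DESeq2 (adjusted p = 0.0704), library size alone (adjusted p = 0.0806), limma-voom (adjusted p = 0.0514), no filter or normalization without the ribosomal protein genes, nor without any 1 of the 6 libraries.

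These 4 are all the members on chromosome 15, a chromosome on which most genes were lower. Of its 458 tested genes 345 fell and 32 rose, with a median log2 fold change of -0.53. All 4 members lay above that median, Rpl8, Rpl30 and Rpl37 at -0.45, -0.43 and -0.42 and Rpl3 at -0.13. On chromosome 19, 313 of 422 genes rose and 31 fell, with a median of 0.61, and no member lies there. On the other chromosomes the median of all genes was between -0.12 and 0.05, and there 28 members rose and 4 fell among 77. The 14 members on chromosome 7, the largest number on 1 chromosome, had 6 rises, with a median of 0.11. Whether the level of the members on chromosome 15 and the shift of the chromosome have 1 source was not tested.

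**Figure D4:**
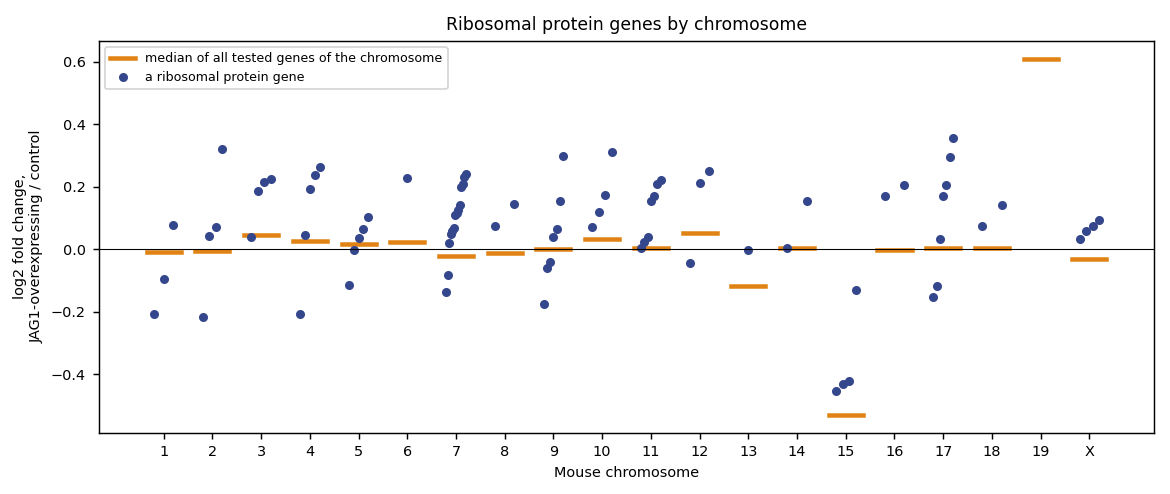
Log2 fold change of each tested ribosomal protein gene (blue points) by mouse chromosome, with the median of all tested genes of that chromosome (orange bars). The 4 points of chromosome 15 lie below 0 with the chromosome's median of -0.53, and chromosome 19 at 0.61 has no point. Elsewhere the medians are near 0, and 62 points lie above 0 and 15 below.

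The 4 falls outside chromosome 15 were smaller than those of Rpl8, Rpl30 and Rpl37, between -0.18 and -0.22. Rpl12, at the base of the stalk that binds translation factors, was at 177, 179 and 184 CPM in control and at 148, 166 and 151 CPM in JAG1-overexpressing libraries, a log2 fold change of -0.22 ± 0.06 (adjusted p = 0.00659, edgeR's quasi-likelihood test). The groups did not overlap, and none of the windows at its 3' end is shared with another gene. Rpl7, a protein bound to large subunit RNA, was at 325, 308 and 305 CPM against 257, 296 and 260 CPM, and had a log2 fold change of -0.21 ± 0.06 (adjusted p = 0.0142, edgeR's quasi-likelihood test). It did not pass without JAG1-overexpressing replicate 1 (adjusted p = 0.0723) or 3 (adjusted p = 0.069).

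Rpl22, a large subunit protein that also has roles in lymphocyte development, was at 3026, 2945 and 2751 CPM and at 2563, 2349 and 2646 CPM, with the groups apart and a log2 fold change of -0.21 ± 0.06 (adjusted p = 0.0124, edgeR's quasi-likelihood test). Its call was lost without control replicate 2 (adjusted p = 0.0546) or JAG1-overexpressing replicate 2 (adjusted p = 0.0514). Rps25, known for its need in initiation from viral internal entry sites, was the only small subunit gene called lower. It was at 371, 358 and 359 CPM and at 310, 333 and 321 CPM, and fell by 0.18 ± 0.05 (adjusted p = 0.00914, edgeR's quasi-likelihood test), though not past the threshold without JAG1-overexpressing replicate 1 (adjusted p = 0.0511).

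Of 6 members named for their roles only Rpl11 passed the test. The stalk proteins Rplp0, Rplp1 and Rplp2, which recruit elongation factors, had log2 fold changes of 0.07, 0.04 and -0.08, each with overlapping groups and none past the threshold, although Rplp2 was called lower when scaled to summed ribosomal protein reads (adjusted p = 0.0198, edgeR's quasi-likelihood test). Rplp0 was at 1276 to 1394 CPM in control and 1361 to 1436 CPM in JAG1-overexpressing libraries. Rpsa, which is also known as the laminin receptor, was at 794 to 843 CPM and 831 to 875 CPM, a log2 fold change of 0.07 that did not pass. Rps9, the member with the most reads, at 4760, 4619 and 4417 CPM and at 4705, 4553 and 4725 CPM, had a log2 fold change of 0.02 ± 0.05. Rpl4, which lines the exit tunnel, was at 2497 to 2697 CPM and 2407 to 2695 CPM, with a log2 fold change of -0.06. By mean CPM the order was Rps9, Rpl8, Rps20, Rpl22 and Rpl4, of which Rps9 stood above the others in every library and the rest were close enough to change places between groups.

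Several members have a paralog, and whether it takes their place in the ribosome was not tested. Rpl22l1, which Rpl22 is known to repress, was at 173, 187 and 193 CPM in control and at 214, 218 and 213 CPM in JAG1-overexpressing libraries, and rose by 0.22 ± 0.05 (adjusted p = 0.00452, edgeR's quasi-likelihood test) where Rpl22 fell. The ratio of Rpl22l1 to Rpl22 reads was 0.0570, 0.0634 and 0.0701 in control and 0.0834, 0.0928 and 0.0806 in JAG1-overexpressing libraries. The groups did not overlap, and the mean log2 ratio was 0.43 higher in JAG1-overexpressing astrocytes, from -3.98 ± 0.15 to -3.55 ± 0.11 (SD, n = 3). An exact two-sided permutation test gave p = 0.1, the smallest that 3 against 3 libraries allow, and 0.4 after adjustment over the 4 pairs tested.

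The other 3 ratios overlapped between the groups. Rpl36al rose by 0.21 (adjusted p = 0.0036, edgeR's quasi-likelihood test), from 504 to 549 CPM in control to 599 to 615 CPM, while its partner Rpl36a, on chromosome X, had a log2 fold change of 0.10 and did not pass. Rps27l, a p53-induced relative of Rps27, was at 151 to 175 CPM and 160 to 166 CPM, with a log2 fold change of -0.04, and Rpl7l1, which takes part in assembly of the large subunit, had one of -0.15 (adjusted p = 0.0762, edgeR's quasi-likelihood test). Rpl7l1 was called lower without control replicate 3 (adjusted p = 0.0458) or JAG1-overexpressing replicate 3 (adjusted p = 0.0364), with upper-quartile factors (adjusted p = 0.041) and scaled to summed ribosomal protein reads (adjusted p = 0.0294), and its log2 fold change was -0.09 without JAG1-overexpressing replicate 2. Rps27 itself varied widely in JAG1-overexpressing libraries, at 63.1, 48.4 and 65.3 CPM, and did not pass (adjusted p = 0.101, edgeR's quasi-likelihood test). Without JAG1-overexpressing replicate 2 it did (adjusted p = 0.00621), with a log2 fold change of 0.34, as it did with no filter (adjusted p = 0.045). All 50-base windows in the last 300 bases of a transcript of Rps27 occur in Rps27rt, a copy on chromosome 9. Rps27rt was at 116, 114 and 120 CPM in control and at 129, 121 and 129 CPM in JAG1-overexpressing libraries. How reads were divided between Rps27 and this copy is not known, so the level, spread and ratio of Rps27 are uncertain to that extent. The exact permutation p of the log2 ratios was 0.3 for Rps27l to Rps27, 0.4 for Rpl36al to Rpl36a and 0.7 for Rpl7l1 to Rpl7.

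Fau and Rack1 encode ribosomal proteins outside the naming rule. Fau, on chromosome 19, encodes Rps30 fused to a ubiquitin-like protein, and was at 250, 240 and 225 CPM in control and at 387, 409 and 394 CPM in JAG1-overexpressing libraries. It rose by 0.73 ± 0.05 (adjusted p = 5.91e-07, edgeR's quasi-likelihood test), more than any member and near the median of its chromosome, 0.61. Rack1, written Gnb2l1 in the files and a scaffold on the head of the small subunit, was at 2395 to 2585 CPM and 2590 to 2793 CPM. Its groups just failed to overlap, and its log2 fold change of 0.12 did not pass (adjusted p = 0.0715, edgeR's quasi-likelihood test).

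Ribosomal protein genes have many processed copies in the genome, so that short 3' reads can be hard to place. In the GENCODE M21 transcripts, 60 of the 81 members shared at least 50% of the 50-base windows of their last 300 bases with a transcript of another gene, and 8 shared none. Of the 36 called members, 24 were among those 60. The 21 members under 50% had 8 rises and 4 falls. Rpl8 shared 25.1% of its windows, Rpl30 80.9% and Rpl3 all of them. Of the 10 largest rises, Rpl11 shared all its windows, Rpl36 89.2%, Rps13 88.0%, Rps28 68.5% and Rps15 55.8%. Rps29 shared 48.6%, Rps21 36.3% and Rps3 7.17%, and Rps20 and Rpl14 shared none. Of the falls outside chromosome 15, Rpl7 shared 93.6%, Rps25 79.7%, Rpl22 23.9% and Rpl12 none.

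Rows for such copies moved like their parent genes in some cases. Rpl37rt, a copy of Rpl37 on chromosome 5, was at 1064, 991 and 991 CPM in control and at 717, 755 and 769 CPM in JAG1-overexpressing libraries. It fell by 0.44 ± 0.05 (adjusted p = 2.43e-05, edgeR's quasi-likelihood test), and 81.2% of the windows of one of its transcripts occur in transcripts of Rpl37, whereas the last 300 bases of Rpl37's own coding transcript share none with another gene. The pseudogene Rplp2-ps1 on chromosome 12 held 103212 reads in control replicate 1 where Rplp2 held 54251, and fell by 0.13 (adjusted p = 0.0366, edgeR's quasi-likelihood test). Rpl14-ps1 rose by 0.25 and Rpl34-ps1 by 0.19, as Rpl14 and Rpl34 did. The 7 rows named as pseudogenes held as many reads as 9.44% to 9.63% of those on members in control and 8.56% to 8.72% in JAG1-overexpressing libraries. How the reads were divided between copies is not given in the sources used here, and the levels of members with shared 3' ends are uncertain to that extent.

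The spread between replicates was small. The coefficient of variation of a tested member had a median of 4.14% in control, from 0.941% for Rpl39 to 13.5% for Rps24, and of 3.58% in JAG1-overexpressing libraries, from 0.834% for Rpl31 to 15.5% for Rps27. It passed 10% for Rps24 and Rpl17 in control and for Rps27 alone in JAG1-overexpressing libraries. Many members shared the order of the libraries within a group. Control replicate 1 was the highest control for 45 of the 81 and JAG1-overexpressing replicate 3 the highest of its group for 54, whereas JAG1-overexpressing replicate 1 was the highest for 1 and the lowest for 46.

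The other parts of the protein synthesis machinery were counted from lists of genes by role. Beside them, 27.4% of all genes tested rose and 27.7% fell, and outside chromosomes 15 and 19 26.5% rose and 26.5% fell. The 77 mitochondrial ribosomal protein genes, the group most like the members, had 29 rises (37.7%) and 10 falls (13.0%), with a median of 0.12. Outside chromosomes 15 and 19 they had 24 rises and 9 falls among 71, with a median of 0.11. All 77 together took 0.722% to 0.737% of the reads in control and 0.806% to 0.829% in JAG1-overexpressing libraries. Of 9 chaperones that escort ribosomal proteins, 6 rose and 2 fell. Heatr3, which brings Rpl5 into the nucleus, was at 65.7, 78.4 and 86.3 CPM against 116, 126 and 119 CPM and rose by 0.65 ± 0.09 (adjusted p = 8.67e-05, edgeR's quasi-likelihood test). Rps19bp1, a partner of Rps19 encoded on chromosome 15, fell by 0.88 ± 0.06, and Tsr2, the chaperone of Rps26, by 0.31 ± 0.06.

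Of 73 genes of ribosome biogenesis 34 rose (46.6%) and 12 fell (16.4%), with a median of 0.13. The largest rise was that of Rsl1d1, a nucleolar protein, from 448, 446 and 443 CPM to 869, 833 and 881 CPM, by 0.95 ± 0.05 (adjusted p = 2.14e-08, edgeR's quasi-likelihood test). The largest fall was that of Mdn1, an ATPase that removes assembly factors, by 0.70 ± 0.10. Outside chromosomes 15 and 19 the list had 30 rises and 10 falls among 66. RNA polymerase I, which makes the precursor of ribosomal RNA, had 1 rise and 3 falls among 15 genes, with Cd3eap higher by 0.30 and Polr1a, its largest subunit, with a log2 fold change of -0.55 (adjusted p = 0.000239, edgeR's quasi-likelihood test).

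Initiation factors had 7 rises and 9 falls among 36 genes. All 6 on chromosome 15, Eif3d, Eif3e, Eif3h, Eif3l, Eif4b and Pabpc1, fell, and outside chromosomes 15 and 19 the list had 6 rises and 3 falls among 29. Eif5, which drives GTP hydrolysis at the start codon, rose by 0.97 ± 0.05, from 242, 254 and 247 CPM to 480, 492 and 481 CPM. Eif3e, a subunit of the eIF3 complex, had the largest fall, by 0.67 ± 0.05. Of 12 elongation and termination factors 5 rose and 7 did not pass, and Eif5a2, a form of the elongation factor eIF5A, at 1.58 to 2.36 CPM and 3.71 to 5.09 CPM, rose by 1.03 ± 0.21.

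Of 21 further genes whose mRNAs carry a TOP tract 5 rose and 6 fell. These shares, 23.8% and 28.6%, were near those of all genes, 27.4% and 27.7%. Outside chromosomes 15 and 19 there were 3 rises and 1 fall among 13, with a median of 0.04. Hnrnpa1, a splicing factor encoded on chromosome 15, had the largest fall, by 0.77 ± 0.12, and Fau the largest rise. Among 17 genes of mTORC1, LARP1 and MYC 4 rose (23.5%) and 1 fell (5.88%). Larp1 was at 176, 183 and 180 CPM in control and at 254, 241 and 249 CPM in JAG1-overexpressing libraries, and rose by 0.47 ± 0.05 (adjusted p = 9.65e-06, edgeR's quasi-likelihood test). It was named for its role after its value was seen. Rps6kb2, an S6 kinase on chromosome 19, rose by 0.84 ± 0.18 at 3.77 to 10.5 CPM, and Eif4ebp1, the translation repressor 4E-BP1, fell by 0.36 ± 0.06 (adjusted p = 0.000235, edgeR's quasi-likelihood test). These lists are described by their counts alone, with no test of a list against the rest of the genes.

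**Figure D5:**
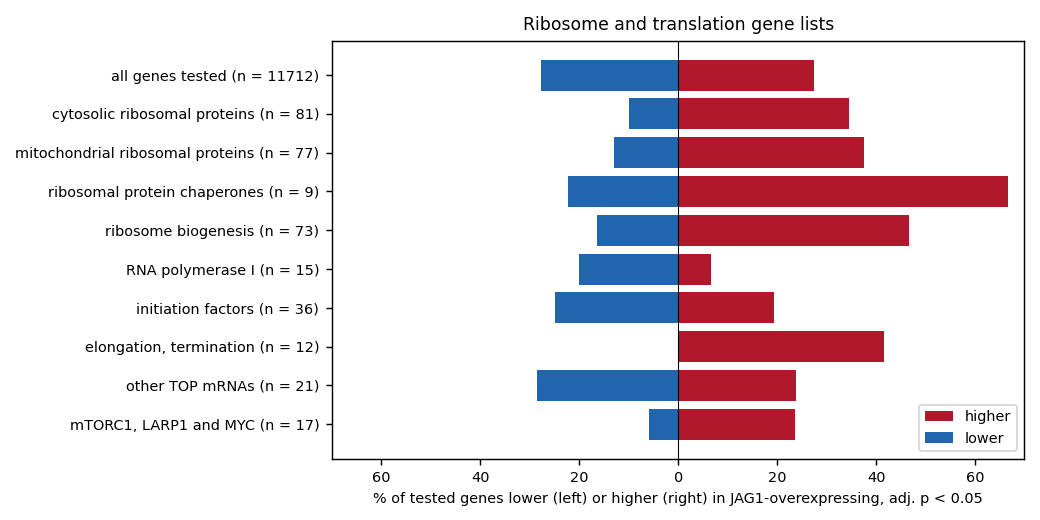
Share of the tested genes of each list (%) that were lower (blue, to the left) or higher (red, to the right) with JAG1 overexpression (adjusted p under 0.05); bars start at 0 and n is the number of genes tested. All genes tested lie at 27.7% lower and 27.4% higher, and the cytosolic ribosomal proteins at 9.88% lower and 34.6% higher.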

How the data were processed

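RNA of 6 libraries was measured, 3 control and 3 JAG1-overexpressing. The authors deposited, per library, raw read counts per gene symbol and the log2 of a normalized count. The raw counts were used, and no result uses the deposited log2 values. The submitters' notes name Bowtie2, bedtools, edgeR and the builds GRCm38 and mm10, without roles or versions. Counting rules, strand and annotation are not given in the sources used here.

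In R 4.3.3, edgeR 4.0.16 was applied to the counts. Low rows were removed by filterByExpr (minimum count 10), which kept 11712 genes, and TMM factors lay between 0.987 and 1.01. A quasi-likelihood model with the group as its sole term gave p-values, which Benjamini-Hochberg adjustment took over all genes tested, and calls were made at 0.05. Standard errors came from the F statistic. Levels are TMM-normalized CPM. Limits from a count of 3 cover counting error only. Chromosomes, coordinates and starts came from RefSeq for GRCm38.p6, to which all 85 members matched by symbol, and 3' ends from GENCODE M21. The fit was tested on simulated data.

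The members and lists were chosen with earlier results of these data known. Named were the 10 largest rises and up to 10 largest falls among called members, the paralogs and their partners, the 5 highest members by CPM, 6 members by role, 3 ribosomal proteins outside the rule, members with under 10 reads, and the largest called rise and fall of each list; other genes named were chosen after their values were seen, and some genes that this rule or the counts include are not reported here by name. Alternatives were DESeq2 1.42.0, library size alone, upper-quartile factors, TMM without the ribosomal protein genes, scaling to summed ribosomal protein reads, no filter, a mean of at least 10 reads, limma-voom (limma 3.58.1), a replicate block and leaving out each library; for shares, leaving out the ribosomal RNA row or adding the 3 proteins, and for ratios, a pseudocount of 1 read.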

Additional observations from a re-analysis of the deposited data

How the results depend on the processing

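The 28 rises and 8 falls became 26 and 7 under DESeq2, 31 and 7 with library size alone, 23 and 9 with upper-quartile factors, and 28 and 7 under limma-voom. Scaled to summed ribosomal protein reads they became 17 and 13, of which 17 and 8 were shared with the calls in the report, and the median log2 fold change moved from 0.08 to 0.0296, while that of all genes moved to -0.04. Leaving out single libraries gave 17 to 30 rises, 5 to 10 falls and a median of 0.06 to 0.10. Deviations from the group means correlated weakly between libraries of the same replicate number (r of 0.148, 0.0614 and 0.119). Between libraries of other numbers r ran from -0.144 to 0.0109, so that every library correlated best with its own number. Whether the numbers mark a pairing is not given, and the main fit left them out. A fit with the replicate block gave 30 rises and 8 falls, 27 and 8 of them shared, and it called Rps27 higher (adjusted p = 0.0483, edgeR). Of the 300 values over 15 alternatives of the 20 called members named by the rule above, 281 kept direction and call and 19 kept direction only. These 20 leave out Rpl38, Rps18, Rpl35a and Rpl34, which are named for other reasons. Rpl34 lost its call when scaled to summed ribosomal protein reads and without control replicate 2, and the losses of Rps18 and Rpl35a are given with their starts. Scaling to summed ribosomal protein reads lowers every gene by about the same amount, so that genes near 0 turn by construction: Rpl5 was at -0.00927, Rplp1 at -0.00413 and Rps9 at -0.0258, and with upper-quartile factors, which also lower all genes, Rps9 was at -0.00549. Without single libraries Rpl5 ran from -0.00447 to 0.0728, Rplp1 from -0.0384 to 0.0861, Rps9 from -0.0142 to 0.0447 and the log2 ratio of Rpl7l1 to Rpl7 from -0.0309 to 0.182, against 0.05 with all libraries. The cause of the turns without single libraries was not tested. The share of reads on members differed by 0.221 to 0.344 percentage points without single libraries, and by 0.259 and 0.315 under its other alternatives.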
